A study of Mus musculus with 2 samples.

Results

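Expression of 10 integrin subunit genes was followed in single-cell RNA libraries of hepatic stellate cell (HSC) preparations. The genes were listed by name as Itga1, Itga5, Itga8, Itga9, Itga11, Itgav, Itgb1, Itgb3, Itgb5 and Itgb8, and they are 10 of the 31054 features counted. The livers came from male C57BL/6 mice that received carbon tetrachloride (CCl4), tamoxifen and diphtheria toxin for 4 weeks, and HSCs were enriched by perfusion digestion and a density gradient. The p16-Alb-LRTD mice carried p16-CreERT2, Alb-DreERT2 and the toxin receptor allele R26-CAG-LSL-RSR-tdTomato-2A-DTR, the alleles being heterozygous, so that the toxin receptor needed both the p16 and the albumin driver and was directed to hepatocytes with high p16 expression. The p16-LRTD mice carried p16-CreERT2 and the same reporter but no Alb-DreERT2, and they served as the control genotype under the same agents. There was 1 library per genotype, and the number of mice behind each library was not given in the sources used here. No test between genotypes was therefore possible, and each difference below is one between 2 libraries.

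Integrins are receptors for the extracellular matrix that sit in the plasma membrane as a pair of an alpha and a beta chain. The chains set which ligand is bound: alpha1 and alpha11 pair with beta1 and bind collagens, alpha5 with beta1 binds fibronectin, alpha8 with beta1 binds nephronectin and other RGD-containing proteins, and alpha9 with beta1 binds tenascin C and osteopontin. Alpha v pairs with beta1, beta3, beta5 or beta8. Several of these alpha v receptors can release active TGF-beta from its latent complex, a step known for its part in the activation of HSCs, the main collagen-producing cells of the fibrotic liver.

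Promoter sequences are shown for Itga8 and Itgb5, whose levels were higher in HSCs with more collagen transcripts, and for Itgb1, whose level was lower there. They are the 250 bases before the RefSeq start (GRCm38.p6), written 5′ to 3′ on the strand of the gene. Itga8 is on the minus strand (chr2:12301945-12302194), Itgb5 on the plus strand (chr16:33829415-33829664) and Itgb1 on the plus strand (chr8:128685404-128685653). Capitals mark GC boxes (GGGCGG) and TEAD motifs (GGAATG) on either strand.
Itga8: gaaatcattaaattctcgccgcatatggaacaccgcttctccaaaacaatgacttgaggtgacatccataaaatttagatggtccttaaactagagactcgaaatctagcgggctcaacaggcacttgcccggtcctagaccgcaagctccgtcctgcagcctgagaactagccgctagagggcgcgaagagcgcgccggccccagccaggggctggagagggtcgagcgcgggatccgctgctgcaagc
Itgb5: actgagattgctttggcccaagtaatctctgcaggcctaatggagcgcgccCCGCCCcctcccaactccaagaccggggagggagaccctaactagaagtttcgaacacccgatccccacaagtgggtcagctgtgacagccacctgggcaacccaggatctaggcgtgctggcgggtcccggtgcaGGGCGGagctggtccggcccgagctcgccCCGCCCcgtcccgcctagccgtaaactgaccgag
Itgb1: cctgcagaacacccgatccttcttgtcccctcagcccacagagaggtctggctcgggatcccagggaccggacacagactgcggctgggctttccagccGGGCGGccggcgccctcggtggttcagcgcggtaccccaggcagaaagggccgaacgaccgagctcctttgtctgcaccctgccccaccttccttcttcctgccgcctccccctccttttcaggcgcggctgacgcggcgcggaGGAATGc
The Itgb5 window held 3 GC boxes and the Itgb1 window held 1 GC box and 1 TEAD motif, whereas neither was found in the Itga8 window. A GC box was present in 32.7% and a TEAD motif in 12.6% of 32851 mouse promoter windows of that length. The AP-1 motif TGANTCA, with N for any base, was in none of these 3 windows and in 6.75% of all windows. The set of RefSeq promoters used here held an entry for 9 of the 10 genes, all but Itgb3. The entries of Itga9 and Itgb8 begin inside the GENCODE span of the gene and are not shown.

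The genes lie apart in the genome (GRCm38, GENCODE vM21): Itga8 at chr2:12106632-12301922, Itgav at chr2:83724397-83806916, Itgb1 at chr8:128685654-128733200, Itga11 at chr9:62677826-62783982, Itga9 at chr9:118606690-118901003, Itgb3 at chr11:104608000-104670476, Itgb8 at chr12:119158022-119238802, Itga1 at chr13:114953096-115101964, Itga5 at chr15:103344286-103366763 and Itgb5 at chr16:33829665-33949338. Itga1 shares its strand with the overlapping genes Pelo and Gm49395, so reads there may be divided among them. Itga8 overlaps E030013I19Rik and Itga9 overlaps Gm2415 on the opposite strand. UMIs were counted at the 3′ end, and whether intronic reads were counted was not given in the sources used here. Levels are thus compared for 1 gene between cells, never between genes.

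The libraries held 11149 (p16-LRTD) and 8806 (p16-Alb-LRTD) barcodes, of which 9004 and 7416 passed the filters on genes, UMIs and mitochondrial share. Cells were assigned by summed marker UMIs per 10000: Lrat, Ecm1, Hgf and Reln for HSCs (at least 15), Kdr, Stab2 and Ptprb for endothelial cells (at least 8) and Clec4f, Cd5l, Vsig4 and Csf1r for Kupffer cells (at least 8). This gave 7852 and 6621 HSCs, 430 and 283 endothelial cells, and 283 and 178 Kupffer cells, with 245 and 221 barcodes that passed several gates left out. Median depths were 17024.5 and 18136 UMIs in HSCs, 11781 and 11992 in endothelial cells, and 19514 and 25101.5 in Kupffer cells. All 10 HSC markers outside the gate, among them Des and Pdgfrb, were at or above 5 CPM in HSCs, as were all 8 endothelial and all 8 Kupffer markers in their own gates. Of the 10 HSC markers, 7 were lower and 3 higher in p16-Alb-LRTD HSCs, with a median log2 ratio of -0.19. Their sum nonetheless rose from 26625 to 29290.5 CPM, and Dcn, the most abundant of them, had a log2 ratio of 0.27. The gate genes Lrat, Ecm1, Hgf and Reln, all 4 of them, were higher too, their sum rising from 8500 to 9581 CPM. Of 7 portal fibroblast and mesothelial markers, 6 were lower in p16-Alb-LRTD HSCs (117 against 78.9 CPM in sum). Of the 4 vascular smooth muscle markers, 2 were lower and 2 higher. They summed to 151 and 74.2 CPM, of which Myh11 alone held 150 and 73.8 CPM. In every gate, 10 of 10 dissociation stress genes were higher in p16-Alb-LRTD, and their summed level in HSCs was 6443 CPM in p16-LRTD against 9912 CPM in p16-Alb-LRTD. The part of these marker and stress differences in the ratios below was not tested. The 8 proliferation genes were lower in p16-Alb-LRTD HSCs, at 142 against 29.9 CPM in sum. So were all 8 in endothelial cells (80.6 against 15.6 CPM) and 7 of 8 in Kupffer cells (86.3 against 49.0 CPM). Their part in the endothelial and Kupffer ratios was not tested. The libraries shared 18 barcodes among the cells kept.

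In HSCs, 8 of the 9 subunits with at least 5 CPM were lower in p16-Alb-LRTD than in p16-LRTD and Itgb8 was higher, when all cells of a library were summed. With ranges of collagen level given equal shares in both libraries, 5 of the 9 were lower, Itga5, Itga8 and Itgb5 changed sign, and Itgb3 (log2 ratio -0.60) and Itgb8 (0.64) passed 1.5-fold. CPM is the gene's UMIs as a share of the UMIs, scaled to 1000000, summed over all cells of a type in a library, and 5 CPM is the minimum mean of both libraries at which a ratio is counted. Over all cells none of the 9 reached a 1.5-fold difference, which 6.07% of all 10179 genes at that level did. The 95% interval of the ratio lay below 1 for 8 subunits, against 46.1% of all genes, and above 1 for 1 subunit, against 27.7%. Intervals are narrower for genes with more UMIs, and these shares of all genes were not matched for level. Over the 9 subunits the median log2 ratio was -0.17, and over all genes it was -0.05. All intervals here reflect the counting of UMIs alone and say nothing of the variation between mice or preparations.

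Among the listed partners of beta1 at the 5 CPM minimum, Itga9 had the ratio furthest from 0. Its level was 778 CPM in p16-LRTD against 586 CPM in p16-Alb-LRTD HSCs, with a log2 ratio of -0.41 (-0.42 to -0.40). Itga8 stood at 176 and 135 CPM, a log2 ratio of -0.38 (-0.41 to -0.35). The fibronectin receptor chain Itga5 was at 21.0 and 19.2 CPM, a log2 ratio of -0.13 (-0.20 to -0.05).

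The collagen-binding chains among the 10 subunits are Itga1 and Itga11. Itga1 was at 881 CPM in p16-LRTD against 834 CPM in p16-Alb-LRTD, with a log2 ratio of -0.08 (-0.09 to -0.07). Itga11, under the 5 CPM minimum, was at 3.49 CPM from 498 UMIs and 2.45 CPM from 306 UMIs, a log2 ratio of -0.51 (-0.72 to -0.31). Within the 3 ranges of collagen level described further on, its ratio was -0.05, 0.23 and 0.02, each with an interval that included 0. Within the 5 HSC clusters it was lower in 4, of which 3 had intervals below 0, and its ratio in cluster 4, where its level was highest, was -0.83 (-1.21 to -0.46). Itgb1, the common beta chain, was at 881 and 781 CPM, a log2 ratio of -0.17 (-0.18 to -0.16).

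In the alpha v group, the shared chain Itgav was at 139.9 CPM in p16-LRTD against 129 CPM in p16-Alb-LRTD HSCs, with a log2 ratio of -0.12 (-0.15 to -0.09). Itgb5, a vitronectin receptor chain, was at 282 and 226 CPM, a log2 ratio of -0.32 (-0.34 to -0.30). Itgb3, also a vitronectin receptor chain, was at 168 and 146 CPM, a log2 ratio of -0.20 (-0.23 to -0.17). Itgb8, which serves mainly in the release of TGF-beta, was at 17.9 and 19.1 CPM, a log2 ratio of 0.10 (0.01 to 0.18). The beta chains that pair with alpha v thus did not move one way between the libraries.

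**Figure D1:**
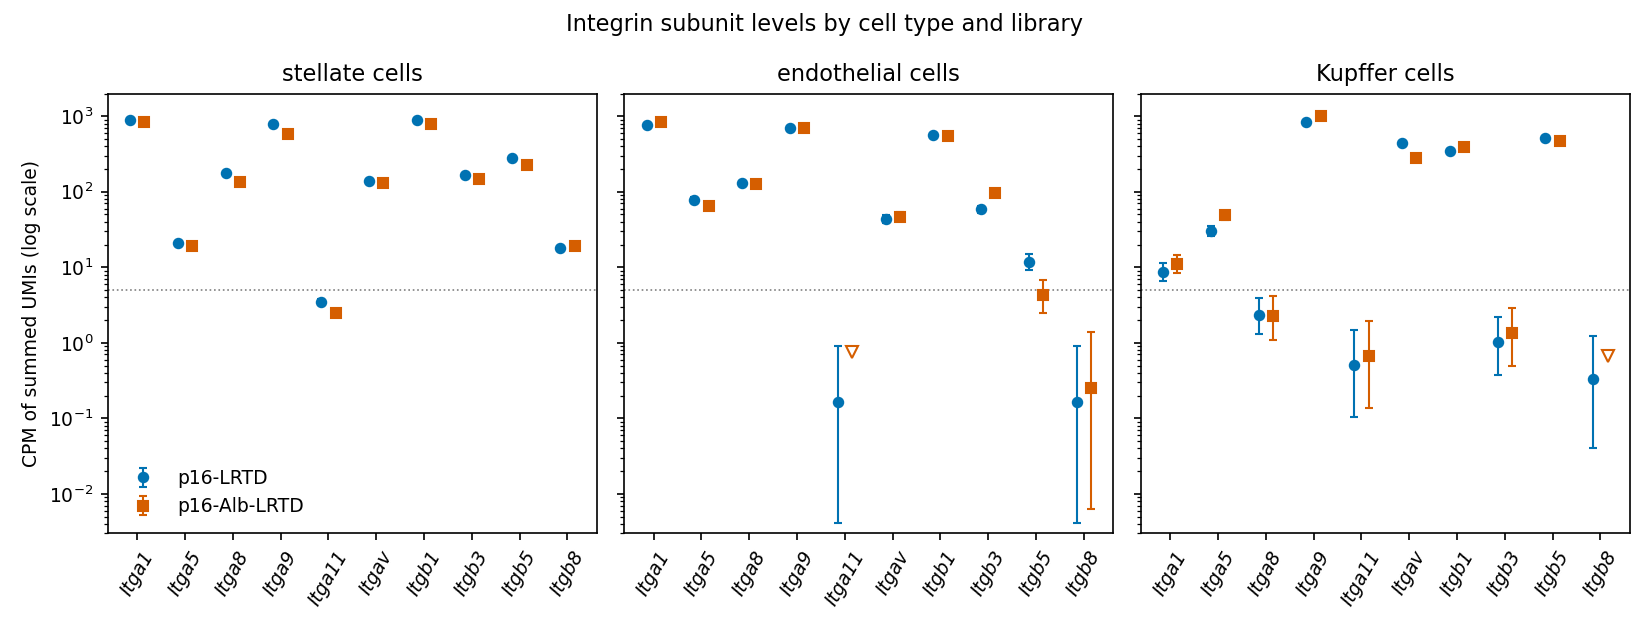
Level of each integrin subunit in HSCs (left), endothelial cells (middle) and Kupffer cells (right) in p16-LRTD (blue circles) and p16-Alb-LRTD (orange squares), in CPM of summed UMIs on a log axis, with 1 library per genotype. Bars are 95% exact Poisson intervals, the dotted line is 5 CPM, and open triangles mark genes with 0 UMIs, drawn at the level of 3 UMIs; Itgb8 is at 17.9 and 19.1 CPM in HSCs and under 1 CPM in the other types.

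Shares of HSCs with a UMI were lower in p16-Alb-LRTD for 9 subunits and higher for Itgb8. After each cell was thinned to 5000 UMIs, which left out 16 p16-LRTD and 7 p16-Alb-LRTD HSCs below that depth, Itga1 was found in 96.8% and 96.0%, Itgb1 in 97.4% and 95.8%, and Itga9 in 94.5% and 89.96% of HSCs. Itgb3 was found in 49.9% of p16-LRTD HSCs (48.8% to 51.0%, Clopper-Pearson) and 42.9% of p16-Alb-LRTD HSCs (41.7% to 44.1%). Itgb5 was found in 68.1% and 64.8%, Itgav in 47.3% and 43.8%, and Itga8 in 41.7% and 39.8%. Itgb8 was found in 6.20% (5.68% to 6.76%) and 7.73% (7.09% to 8.40%), and Itga5 in 9.24% (8.61% to 9.90%) and 8.62% (7.95% to 9.32%). The intervals of the libraries overlapped for Itga1, Itga5, Itga8 and Itga11. Without thinning the shares were 70.2% and 72.2% for Itga8 and 93.3% and 95.6% for Itgb5, higher in p16-Alb-LRTD, whose HSCs were deeper in median, and 17.7% and 21.1% for Itgb8, 77.9% and 72.8% for Itgb3 and 99.9% and 99.8% for Itga1. Kupffer cells, set beside HSCs as cells with few UMIs of these genes, held a UMI of Itgb3 in 0.719% and 0.565%, of Itga8 in 1.08% and 1.13%, and of Itgb8 in 0 of 278 and 0 of 177 cells. For Itgb8 a limit of 3 cells would be 1.08% and 1.69%, and the Clopper-Pearson upper limits were 1.32% and 2.06%. The Itga11 share of HSCs, 1.54% (1.28% to 1.84%) and 1.18% (0.933% to 1.47%), lay within the interval of the p16-LRTD Kupffer share, 0.719% (0.0872% to 2.57%), so the shares do not separate these cell types at this depth. In CPM the p16-LRTD levels did separate, at 3.49 (3.19 to 3.81) in HSCs and 0.505 (0.104 to 1.47) in Kupffer cells.

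HSCs were not uniform in these receptors. Clustering without integrin, collagen and other listed genes gave 5 clusters with at least 50 cells in each library, which keep their numbers here. Cluster 0 (2165 and 2032 cells) was led by Galnt14 and Egfem1, cluster 1 (1928 and 2128) by Grid1 and Inmt, cluster 2 (1973 and 1003) by Notch3 and Clstn2, cluster 3 (961 and 702) by Spon2 and Pcolce, and cluster 4 (552 and 580) by Wt1 and Pex5l. Wt1 is also in the list of portal fibroblast and mesothelial markers. Cluster 4 had the most collagen transcripts, with medians of 202 and 50.3 UMIs of Col1a1, Col1a2 and Col3a1 per 10000, and cluster 2 the fewest, with 14.95 and 13.59.

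In both libraries Itga5, Itga8, Itga11, Itgb5 and Itgb8 were highest in cluster 4, where Itga1, Itga9, Itgb1 and Itgb3 were lowest. Those last 4 genes were highest in cluster 2, where Itga8, Itgb5 and Itgb8 were lowest. Itga8 ran from 62.9 CPM in cluster 2 to 702 CPM in cluster 4 of p16-LRTD, and from 75.9 to 462 CPM in p16-Alb-LRTD. Itgb8 ran from 4.41 to 44.3 CPM in p16-LRTD and from 6.65 to 46.1 CPM in p16-Alb-LRTD. Itgb3 went the other way, from 304 CPM in cluster 2 to 18.0 CPM in cluster 4 of p16-LRTD, and from 284 to 19.5 CPM in p16-Alb-LRTD. The beta chains that share the partner Itgav thus had opposite orders over the clusters, while Itgav itself stayed between 106 and 147 CPM in all 5 clusters of both libraries. Itgb1 ran from 1146 CPM in cluster 2 to 567 CPM in cluster 4 of p16-LRTD, and from 1027 to 514 CPM in p16-Alb-LRTD. Itga11 was above 5 CPM in cluster 4 only, among these 5 clusters, at 14.8 and 8.31 CPM.

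**Figure D2:**
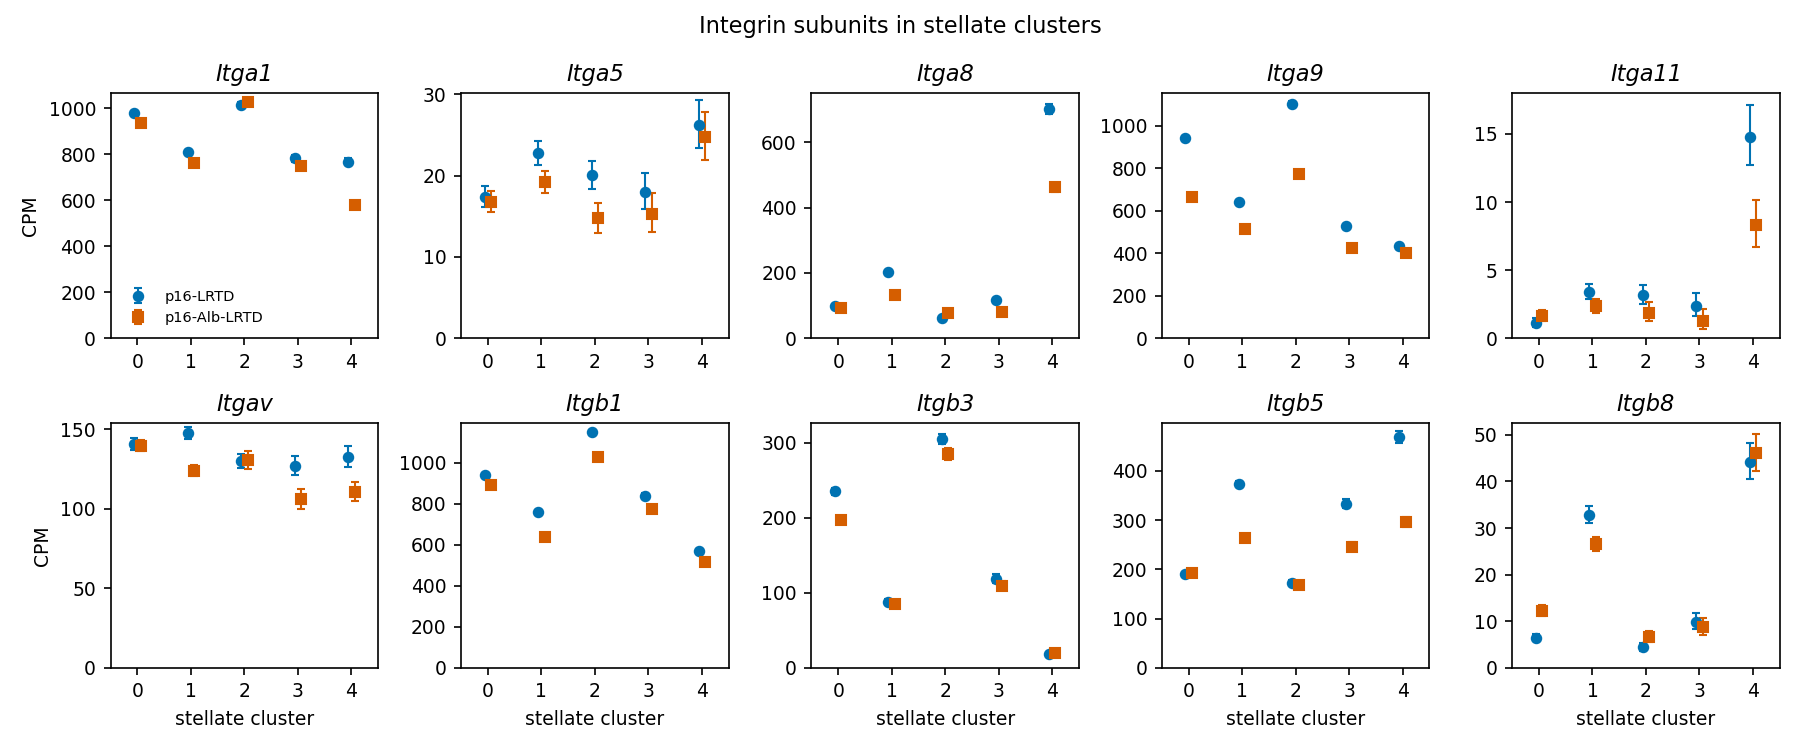
Level of each integrin subunit in CPM (linear axis from 0) in HSC clusters 0 to 4 of p16-LRTD (blue circles) and p16-Alb-LRTD (orange squares), with 95% exact Poisson intervals. Itga8 reaches 702 and 462 CPM in cluster 4, where Itgb3 falls to 18.0 and 19.5 CPM.

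Within clusters, Itga9 and Itgb1 were lower in p16-Alb-LRTD with an interval below 1 in 5 of 5 clusters, as were 6.8% of all genes, a share not matched for level. The log2 ratio of Itga9 ran from -0.51 in cluster 2 to -0.12 in cluster 4, and that of Itgb1 from -0.25 in cluster 1 to -0.08 in cluster 0. Itga8 was lower in 4 clusters, with log2 ratios down to -0.60 (-0.65 to -0.55) in cluster 4, and higher in cluster 2, at 0.27 (0.17 to 0.38). Itgb5 was lower in clusters 1, 3 and 4, with log2 ratios of -0.50, -0.44 and -0.67, and the intervals of clusters 0 and 2 included 0. Itgb8 was higher in cluster 0, from 6.42 to 12.3 CPM or 0.93 (0.72 to 1.16) on the log2 scale, and in cluster 2, at 0.59 (0.21 to 0.97), but lower in cluster 1, at -0.31 (-0.42 to -0.19). Itga1 was lower by the widest margin in cluster 4, at 769 against 578 CPM or -0.41 (-0.46 to -0.36).

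A similar division was seen along collagen expression inside each library. This view is not independent of the clusters, which differed in collagen, and no slope within a cluster was computed. HSCs were placed in ranges of under 20, 20 to 80 and at least 80 UMIs of Col1a1, Col1a2 and Col3a1 per 10000, which held 37.1%, 35.4% and 27.5% of p16-LRTD and 50.5%, 45.0% and 4.52% of p16-Alb-LRTD HSCs. Of p16-LRTD cells, 8.18% lay within 10% of the lower limit and 4.28% within 10% of the upper one. In p16-Alb-LRTD these were 13.0% and 1.74%, the latter being 115 cells beside 299 in the high range. Itga8 stood at 79.8, 137 and 312 CPM in the low, middle and high range of p16-LRTD, and at 94.1, 159 and 344 CPM in p16-Alb-LRTD. The high-over-low log2 ratio of Itga8 was 1.97 (1.91 to 2.02) in p16-LRTD and 1.87 (1.80 to 1.94) in p16-Alb-LRTD. Itgb5 stood at 164, 255 and 425 CPM and at 184, 257 and 372 CPM in the same order. Both genes were thus higher in each successive range of each library.

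Itgb8 had the steepest slope in p16-LRTD, from 4.53 over 14.7 to 34.4 CPM, a log2 ratio of 2.92 (2.71 to 3.14). In p16-Alb-LRTD it ran from 12.1 over 25.4 to 34.6 CPM, a log2 ratio of 1.52 (1.29 to 1.74). The low ranges of the libraries therefore differed most for this gene and the high ranges did not separate, with a between-library log2 ratio of 0.01 (-0.21 to 0.22) there.

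Itgb3 fell along collagen, from 276 over 176 to 56.4 CPM in p16-LRTD, a high-over-low log2 ratio of -2.29 (-2.35 to -2.23). In p16-Alb-LRTD it went from 199 over 99.3 to 33.3 CPM, a log2 ratio of -2.58 (-2.79 to -2.38). Itga9 had high-over-low log2 ratios of -0.95 (-0.97 to -0.93) and -0.60 (-0.66 to -0.54), Itgb1 of -0.51 (-0.53 to -0.49) and -0.40 (-0.44 to -0.35), and Itga1 of -0.31 (-0.33 to -0.29) and -0.37 (-0.42 to -0.33). Itga5 had ratios of 0.47 (0.34 to 0.60) and 0.69 (0.44 to 0.93), Itga11 of 1.79 (1.43 to 2.16) and 1.86 (1.29 to 2.41), at 1.76 to 6.39 CPM, whereas Itgav was close to level, at 0.10 (0.05 to 0.15) and -0.11 (-0.22 to 0.00039). Of all 10010 genes compared, 6.16% were at least 1.5-fold higher and 4.81% at least 1.5-fold lower in the high range of both libraries, a background beside which Itga8, Itgb5 and Itgb8 stood among the former and Itgb3 and Itga9 among the latter. Cells of one library share their preparation, so these ratios describe the libraries.

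**Figure D3:**
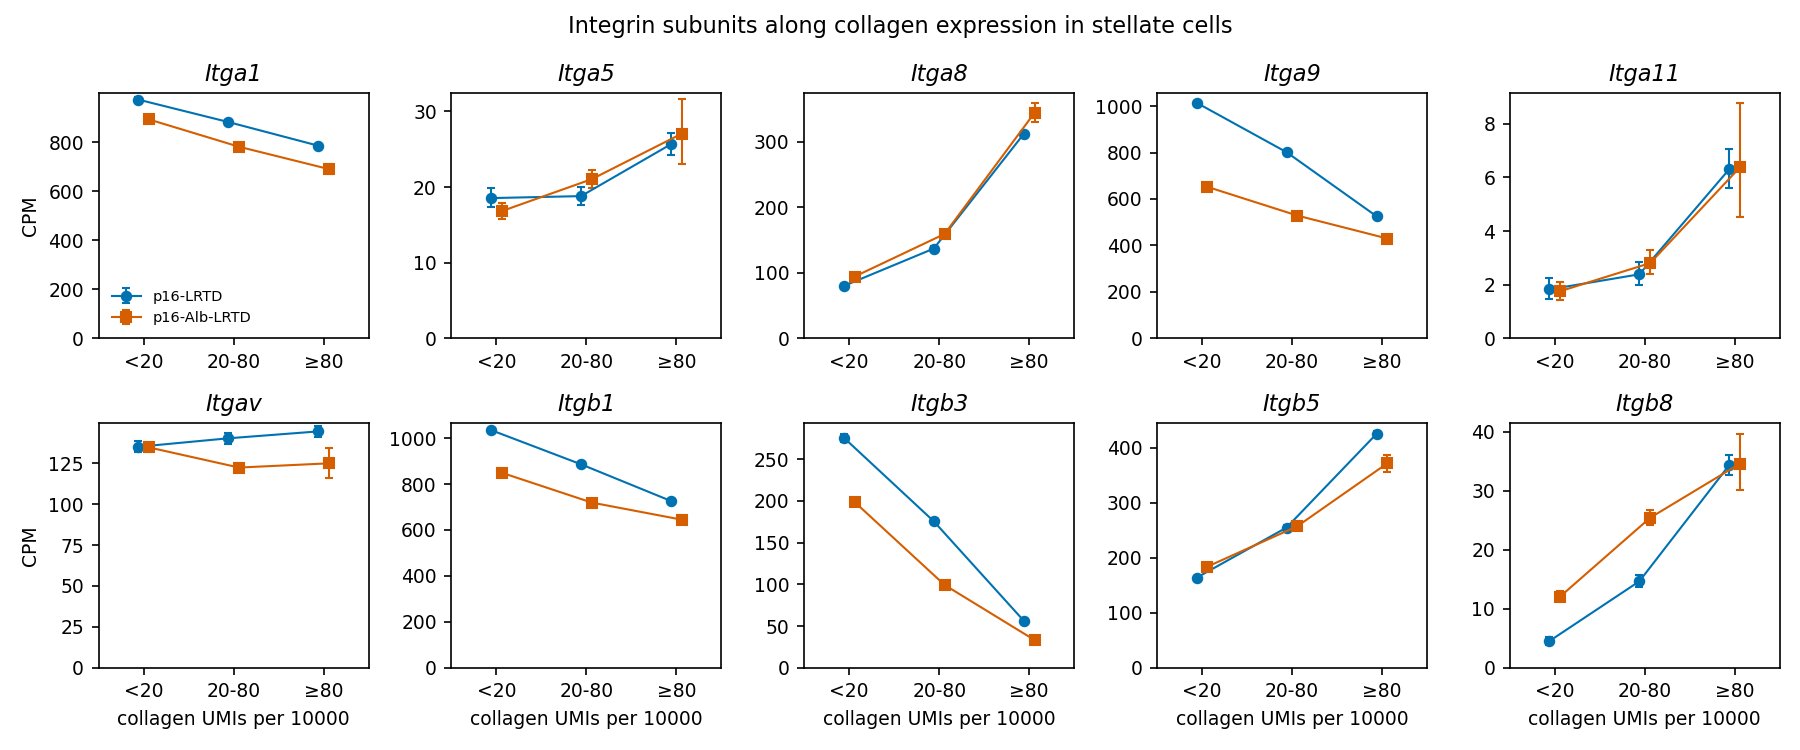
Level of each integrin subunit in CPM (linear axis from 0) in HSCs with under 20, 20 to 80 and at least 80 UMIs of Col1a1, Col1a2 and Col3a1 per 10000, in p16-LRTD (blue circles) and p16-Alb-LRTD (orange squares), with 95% exact Poisson intervals. Itga8, Itgb5 and Itgb8 rise from left to right in both libraries, and Itgb3 and Itga9 fall.

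Between the libraries, 2 of 9 subunits in the low range, 3 of 9 in the middle range and 1 of 10 in the high range differed by at least 1.5-fold, against 7.15%, 7.69% and 8.05% of all genes. Of these, 1, 1 and 0 were higher and 1, 2 and 1 lower in p16-Alb-LRTD. Itga9 was at 1014 and 652 CPM in the low range, a log2 ratio of -0.64 (-0.66 to -0.62), and Itgb3 in the middle range was at 176 and 99.3 CPM, a log2 ratio of -0.82 (-0.87 to -0.77). The higher one was Itgb8, with log2 ratios of 1.41 (1.19 to 1.64) in the low and 0.79 (0.67 to 0.92) in the middle range. A range held different cells in each library. Cluster 1 made up 1.48% of the low range of p16-LRTD and 21.5% of that of p16-Alb-LRTD, and cluster 4 made up 21.9% and 46.8% of the high range. Itga8 was higher in p16-Alb-LRTD within every range, with log2 ratios between 0.14 and 0.24, although it was lower over all HSCs. With clusters given equal shares in both libraries, its log2 ratio was -0.41, and with ranges given equal shares it was 0.19. Equal ranges also gave 0.03 for Itga5 and 0.0037 for Itgb5. The direction of Itga8 thus depended on which cells were set against each other, while Itga9, Itgb1 and Itgb3 were lower in both settings.

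Genes with the most similar pattern were named from 12 points, each being an HSC cluster in a library where it held at least 50 cells, among 6699 genes at 20 CPM or more. Beside clusters 0 to 4 in both libraries, these were cluster 5 of p16-LRTD (206 cells, led by Top2a and Cenpf) and cluster 6 of p16-Alb-LRTD (138 cells, led by Cxcl9 and Cxcl2). The part of these unpaired points in the correlations was not tested. The points share libraries and the correlations are descriptions. Itgb3 was closest to Adgrg6 (Pearson r 0.99) and Tnfaip8 (0.99), Itga8 to Antxr2 (0.98) and Eml1 (0.98), and Itgb5 to the collagen gene Col1a2 (0.96) and to Plscr3 (0.96). Itgb1 was closest to Rgs4 (0.98) and Me1 (0.97), Itga9 to Daam1 (0.98) and Dph6 (0.95), Itga1 to Speg (0.95) and Cuedc1 (0.94), Itga5 to Fam129b (0.97) and Utp14a (0.96), and Itgav to Arcn1 (0.90) and Fam91a1 (0.89).

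Endothelial cells had 8 subunits at the 5 CPM minimum, and 2 of these differed by at least 1.5-fold between the libraries, against 20% of all genes. Of these, 1 was higher, against 6.44%, and 1 lower, against 13.5%. Itgb3, which endothelial cells use to bind vitronectin, was at 58.7 CPM (52.8 to 65.0) in p16-LRTD against 95.9 CPM (86.5 to 106) in p16-Alb-LRTD, with a log2 ratio of 0.71 (0.50 to 0.92). Itgb5 was at 11.9 CPM from 73 UMIs and 4.27 CPM from 17 UMIs, a log2 ratio of -1.47 (-2.33 to -0.70). Of those p16-LRTD UMIs, 20 came from 4 cells that also held 1225 of the 1323 Col1a1 UMIs of the gate. When barcodes that passed several gates were kept, the log2 ratio of Itgb5 turned to 0.47 and that of Itgb3 was 0.46, under 1.5-fold. Without those 4 cells the ratio of Itgb5 was -1.04. The 10 HSC markers outside the gate summed to 548 and 436 CPM in endothelial cells, against 26625 and 29290.5 CPM in HSCs, and 10 of 10 were lower in p16-Alb-LRTD endothelial cells. Their part in the endothelial ratios was not tested.

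The other endothelial levels differed little. Itga1 was at 766 and 830.0 CPM, a log2 ratio of 0.12 (0.05 to 0.18), and Itga5 at 77.0 and 65.3 CPM, a log2 ratio of -0.24 (-0.46 to -0.02). Itga9 (705 and 703 CPM), Itgb1 (571 and 544), Itga8 (129 and 128) and Itgav (43.9 and 46.9) had log2 ratios between -0.07 and 0.10 with intervals that included 0. Itga11 had 1 and 0 UMIs and Itgb8 had 1 and 1. The median log2 ratio of the 8 subunits was -0.01, and that of all genes -0.10.

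Kupffer cells had 6 subunits at the minimum, and 2 of these differed by at least 1.5-fold, against 12% of all genes. Of these, 1 was higher, against 5.21%, and 1 lower, against 6.83%. Itgav was at 436 CPM (419 to 453) in p16-LRTD against 283 CPM (268 to 299) in p16-Alb-LRTD, with a log2 ratio of -0.62 (-0.72 to -0.52). Its partner Itgb5 was at 513 and 473 CPM, a log2 ratio of -0.12 (-0.20 to -0.03) that turned to 0.0089 when only cells of a narrower range of depth were kept. Itga5 went the other way, with 30.3 and 49.0 CPM and a log2 ratio of 0.69 (0.40 to 0.99).

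Itga9 was at 831 CPM in p16-LRTD against 1007 CPM in p16-Alb-LRTD Kupffer cells, with a log2 ratio of 0.28 (0.22 to 0.34), and Itgb1 at 351 and 389 CPM, a log2 ratio of 0.15 (0.05 to 0.24). Itga1 was at 8.75 and 11.2 CPM, and the interval of its log2 ratio (-0.24 to 0.94) included 0. Under the minimum were Itga8 with 14 and 10 UMIs, Itgb3 with 6 and 6, Itga11 with 3 and 3, and Itgb8 with 2 and 0. The median log2 ratio of the 6 subunits was 0.21, and that of all genes -0.06. The gate held 33 of 283 and 13 of 178 cells poor in Clec4f, the Kupffer-defining lectin receptor. Outside them Itgav was at 451 and 289 CPM, Itga9 at 915 and 1032 CPM and Itga5 at 26.5 and 50.3 CPM. In the 33 and 13 Clec4f-poor cells Itga9 was at 330 and 680 CPM and Itga5 at 53.0 and 31.3 CPM. No interval was computed for the levels in these few cells. With all deposited barcodes instead of the filtered ones, no subunit of this gate reached a 1.5-fold difference, the log2 ratios being -0.53 for Itgav and 0.56 for Itga5. With barcodes of several gates kept, the Kupffer ratio of Itgb1 was -0.08 and that of Itga1 was -0.94.

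**Figure D4:**
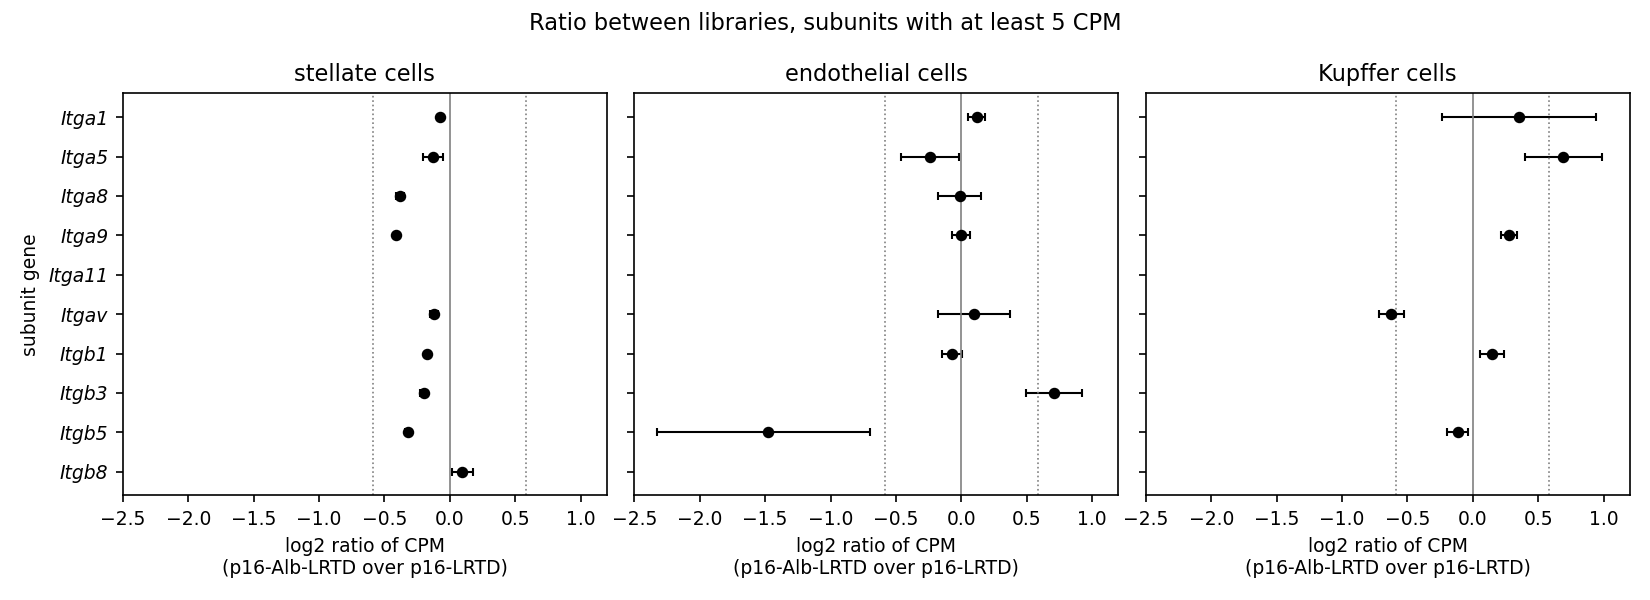
Log2 ratio of CPM, p16-Alb-LRTD over p16-LRTD, of each subunit with at least 5 CPM in HSCs (left), endothelial cells (middle) and Kupffer cells (right), with 95% exact conditional intervals. The solid line is 0 and the dotted lines are 1.5-fold; in HSCs the points lie between -0.41 and 0.10, and Itgb3 and Itgb5 of endothelial cells and Itgav and Itga5 of Kupffer cells lie beyond the dotted lines.

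Across cell types, Itgb8 was highest in HSCs, with 17.9 and 19.1 CPM in HSCs against 1 and 1 UMIs in endothelial cells and 2 and 0 in Kupffer cells. Itgb5 was highest in Kupffer cells, followed by HSCs and then endothelial cells, in both libraries. Itgav had the same order, with 436, 139.9 and 43.9 CPM in p16-LRTD and 283, 129 and 46.9 CPM in p16-Alb-LRTD. Itgb3 was highest in HSCs, lower in endothelial cells and at 1.01 and 1.34 CPM in Kupffer cells.

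Itga5 was highest in endothelial cells (77.0 and 65.3 CPM), followed by Kupffer cells and HSCs. Itga1 was at 8.75 and 11.2 CPM in Kupffer cells, and its levels in HSCs and endothelial cells were within counting error of each other in p16-Alb-LRTD (HSC over endothelial fold 1.01, 0.971 to 1.04) but not in p16-LRTD (1.15, 1.12 to 1.18). Itga8 likewise had HSC over endothelial folds of 1.05 (0.964 to 1.15) in p16-Alb-LRTD and 1.36 (1.27 to 1.46) in p16-LRTD. In Kupffer cells Itga8 was at 2.35 and 2.24 CPM.

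Of 16 other integrin subunits, 4 reached the minimum in HSCs, and 2 of them were at least 1.5-fold lower in p16-Alb-LRTD, against 3.05% of all genes. Itga2, a collagen-binding chain, was at 8.23 and 3.96 CPM, a log2 ratio of -1.06 (-1.21 to -0.90). Itga6, a laminin-binding chain, was at 20.6 and 12.4 CPM, a log2 ratio of -0.73 (-0.82 to -0.64). Itga2b, the platelet partner of beta3, was at 41.2 and 41.7 CPM, a log2 ratio of 0.02 (-0.04 to 0.07), and Itga3 at 5.17 and 5.82 CPM. Itga2b was highest in cluster 2, at 71.3 and 69.3 CPM, and lowest in cluster 4, at 11.6 and 14.5 CPM, as Itgb3 was. The platelet genes Ppbp (2 and 1 UMIs) and Gp9 (2 and 4 UMIs) were near 0 in HSCs, and Pf4 was at 65.9 and 62.2 CPM.

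In endothelial cells Itga6 was at 172 and 82.8 CPM, a log2 ratio of -1.05 (-1.24 to -0.87), and Itga2b (log2 ratio -1.08), Itga4 (0.67, with an interval that included 0) and Itgb7 (0.95) were at under 10 CPM in each library. Of the 16, these 4 reached the minimum, and all 4 differed by at least 1.5-fold, against 20% of all genes. In Kupffer cells 7 of the 16 reached the minimum. The leukocyte chain Itgal was at 426 and 472 CPM, a log2 ratio of 0.15 (0.07 to 0.23), and its partner Itgb2 at 241 and 194 CPM, a log2 ratio of -0.31 (-0.43 to -0.19). Itga4 was at 101 and 164 CPM, a log2 ratio of 0.71 (0.55 to 0.87), and Itgam at 71.8 and 61.9 CPM. Itgax, chosen here after its values were seen, had the lowest ratio, with 52.8 and 16.8 CPM or -1.66 (-2.04 to -1.29) on the log2 scale. It was at 127 and 59.5 CPM in the Clec4f-poor cells of the gate and at 40.4 and 13.5 CPM in the rest.

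Integrin adaptors, which link the cytoplasmic tails to actin and to kinases, differed little in HSCs. Of 29 adaptors 24 reached the minimum, 18 were lower and 6 higher in p16-Alb-LRTD, and none differed by 1.5-fold, against 6.07% of all genes. Their median log2 ratio was -0.08. The lowest ratios were those of Lims2 (-0.53), the scaffold Bcar1 (-0.47) and the talin-binding protein Vcl (-0.43, from 618 to 459 CPM). The highest were those of Parvb (0.38), the tensin Tns1 (0.28, from 577 to 700.4 CPM) and the talin Tln2 (0.17). In endothelial cells 6 of 25 adaptors differed by at least 1.5-fold, against 20% of all genes, with Bcar1 (-0.84), Fermt3 (-0.82) and Flna (-0.66) lowest and Lims2 (1.10), Tns1 (0.60) and Cav1 (0.37) highest. In Kupffer cells 2 of 22 did, against 12% of all genes, the kinases Fyn (1.15) and Src (0.96), followed by Zyx (0.50), while Fermt2 (-0.33), Tns1 (-0.27) and Tns3 (-0.24) had the lowest ratios.

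Ligand genes had a wider range of ratios in HSCs. Of 33 ligands of the extracellular matrix and cell surface, 29 reached the minimum, of which 9 were at least 1.5-fold lower and 1 at least 1.5-fold higher in p16-Alb-LRTD, against 3.05% and 3.03% of all genes. Col1a1 was at 1950.2 and 504 CPM, a log2 ratio of -1.95, Col3a1 had a ratio of -1.60 and Col1a2 of -1.21. Ctgf, a matricellular ligand of several of these integrins, was at 335 and 734 CPM, a log2 ratio of 1.13, followed by Thbs1 (0.47) and Vcam1 (0.36). The median log2 ratio was -0.30 over the 29 ligands, -0.17 over the 9 subunits and -0.08 over the 24 adaptors. In endothelial cells 15 of 26 and in Kupffer cells 13 of 20 ligands differed by at least 1.5-fold, against 20% and 12% of all genes. Of these, 3 were higher and 12 lower in endothelial cells, and 5 higher and 8 lower in Kupffer cells. In Kupffer cells 8 of the 10 HSC markers were also lower in p16-Alb-LRTD, with a summed level of 367 and 322 CPM, and the lower ligands included the HSC genes Col1a1 (133 and 29 UMIs) and Col3a1 (570 and 102 UMIs). Kupffer Spp1, chosen here after its values were seen, had a log2 ratio of -1.15 and was at 1949 and 1918 CPM in the Clec4f-poor cells and at 40.0 and 4.81 CPM in the rest. The part of these cells and markers in the ligand ratios was not tested. The highest log2 ratios in endothelial cells were those of Spp1, or osteopontin (2.06, 1.72 to 2.42), Vcam1, a ligand of alpha4 and alpha9 receptors (0.94, 0.79 to 1.09), and fibronectin, Fn1 (0.89). In Kupffer cells they were those of Tgfb3 (1.49), Cyr61 (1.09) and Vcam1 (0.78, 0.73 to 0.84). The lowest were those of Col1a1, Col1a2 and Col3a1 in both types, at -5.42, -4.13 and -3.13 in endothelial cells and at -1.79, -1.58 and -2.07 in Kupffer cells. For Col1a1 in endothelial cells, 1225 of the 1323 UMIs in p16-LRTD came from the 4 cells named above.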

How the data were processed

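Raw counts of UMIs, 1 matrix per library, were deposited by the authors, who made them from 10x Genomics 3' v3.1 libraries with Cell Ranger 7.0.1 and the mm10 genome. From these counts, barcodes with over 5% mitochondrial UMIs, under 2000 or over 7000 genes, or over 50000 UMIs were left out here, after the methods of the study. Doublets were treated by the upper limits and by leaving out barcodes that passed several gates; no doublet caller was run. UMIs were summed per library and cell type and scaled to CPM, with 95% exact Poisson, exact conditional (ratio) and Clopper-Pearson (share) intervals (Python 3.11.15, NumPy 2.4.6, SciPy 1.17.1, pandas 2.3.3), checked on simulated data. HSCs were clustered in Seurat 5.3.0 (R 4.3.3) after reciprocal PCA (30 dimensions, 2000 variable genes without the listed genes, resolution 0.3). TMM scaling used edgeR 4.0.16. Promoters came from RefSeq and coordinates from GENCODE vM21, in which 30934 features were matched by identifier. All 10 subunits were described in each type, other subunits by level, adaptors and ligands by their 3 lowest and 3 highest ratios. The subunits, lists and gates were chosen with earlier results of these data known. Alternatives covered filters, gates, depth, scaling, minimum level, fold and cell composition.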

Additional observations from a re-analysis of the deposited data

Results flagged for a closer look

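Several subunits had ratios of opposite sign in 2 cell types, each with an interval that excluded 0. The values are log2 ratios of p16-Alb-LRTD over p16-LRTD. Itga1 was at -0.08 in HSCs and 0.12 in endothelial cells. Itga5 was at -0.13 in HSCs and -0.24 in endothelial cells, against 0.69 in Kupffer cells. Itga9 was at -0.41 in HSCs and 0.28 in Kupffer cells, and Itgb1 at -0.17 in HSCs and 0.15 in Kupffer cells, where the latter was -0.08 with barcodes of several gates kept. Over the other settings the Kupffer ratio of Itga9 ran from 0.14 to 0.34, and it was 0.17 without the Clec4f-poor cells. Itgb3 was at -0.20 in HSCs and 0.71 in endothelial cells. With 1 library per genotype these differences between cell types were not tested.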

How the results depend on the processing

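No paired analysis was possible because there was only 1 library for each genotype, so no replicate could be left out either. In HSCs no subunit passed 1.5-fold under the other settings, but 2 did with equal shares of the collagen ranges, Itgb3 (-0.60 against -0.20) and Itgb8 (0.64 against 0.10). The median log2 ratio of the HSC subunits, -0.17, was -0.22 as a mean of single-cell CPM, -0.13 with TMM or median-of-ratios scaling, -0.11 with equal shares of the collagen ranges and -0.15 with equal shares of the clusters, the last chosen after seeing the data. Equal ranges also changed the sign of Itga5 (0.03), Itga8 (0.19) and Itgb5 (0.0037). Of 108 HSC ratios recomputed, 64 stayed within the counting interval and 44 moved beyond it. Of the endothelial subunits, 2 passed the fold, against 0 with barcodes of several gates kept, where Itgb5 reversed to 0.47, and 1 at a fold of 2. Of the Kupffer subunits, 2 passed, against 0 with all deposited barcodes, 4 with barcodes of several gates kept, 1 with TMM or median-of-ratios scaling and 0 at a fold of 2. The causes were not tested beyond the settings themselves. Scaling moved the median of all genes by at most 0.10 (log2). Depth limited Itga11 and Itgb8 outside HSCs and Itgb5 in endothelial cells, where few UMIs decide the value, and the spread between mice is unknown.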
